A study of Caenorhabditis elegans with 2 samples.

Results

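The nuclear oxidative phosphorylation genes were 38 protein-coding genes of *Caenorhabditis elegans*, chosen by name as subunits of the respiratory chain or of ATP synthase. All 38 were found in the Ensembl annotation on WBcel235, out of 19973 nuclear protein-coding genes. They comprised 13 genes of complex I, 4 of complex II, 4 of complex III, the cytochrome c gene *cyc-2.1*, 7 of complex IV and 9 of complex V. The series mapped SNPC-4 by ChIP-seq in 2 biological replicates of 1 group, with no second condition. The animals were whole L2 larvae of mixed sex from strain OP179, which carries *unc-119(ed3)* III and the *wgIs179* insertion of eGFP-tagged *snpc-4*. The labels give no promoter for the transgene, and all tissues of the larva were pooled in each sample.

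SNPC-4 belongs to the small nuclear RNA activating protein complex, a factor that recruits RNA polymerases to small nuclear RNA promoters. Oxidative phosphorylation passes electrons from NADH and succinate through complexes I to IV to oxygen, and complex V uses the resulting proton gradient to make ATP. Complex II is built from nuclear gene products alone, whereas complexes I, III, IV and V also hold subunits made from mitochondrial DNA. In worms, mutants of several of these genes, among them *isp-1*, *nuo-6*, *gas-1* and *mev-1*, are known for altered lifespan or stress sensitivity.

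A gene was called bound when a summit of the authors' list of peaks passing the irreproducible discovery rate (IDR) threshold fell no more than 500 bp from any of its annotated 5' ends. The IDR list held 1864 peaks, the pooled candidate list 30000, the replicate 1 list 21391 and the replicate 2 list 30000. A peak on the IDR list need not appear in both replicate lists. It held 25 mitochondrial peaks, for example, where replicate 1 listed 0. Peak signal is the authors' value per peak, and its scaling to depth was not stated, so signals were compared only within a list. The lowest IDR signal was 28.0, the median 43.7 and the highest 3852. Ranks count from 1 at the strongest peak of a list.

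Of the 38 genes, 14 were bound (36.8%, exact 95% interval 21.8 to 54.0). Among the other 19935 nuclear protein-coding genes 1241 were bound, a share of 6.23%. The bound genes were *nuo-1* in complex I, *sdha-1* and *mev-1* in complex II, and *cyc-1* and *ucr-1* in complex III. In complex IV they were *cox-4*, *cox-5A*, *cox-5B* and *cox-6B*, and in complex V *atp-1*, *atp-2*, *atp-3*, *asb-2* and *asg-2*. Each of the 14 had its own peak, so no peak was counted for 2 members. No test of the list was made, because its members were chosen with earlier results of these data known.

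The complexes differed in their counts. Complex I had 1 bound gene of 13 (7.69%, exact 95% interval 0.195 to 36.0), a share near the 6.23% of other coding genes. The 13 are a chosen part of the complex I genes. The complex I gene *nduf-11*, counted below in another list, was bound with an IDR signal of 59.5. The other complexes and cytochrome c together had 13 of 25 (52.0%, 31.3 to 72.2). Counts were 2 of 4 for complex II, 2 of 4 for complex III, 0 of 1 for cytochrome c, 4 of 7 for complex IV and 5 of 9 for complex V. The difference between complex I and the rest was not tested, and the intervals cover the counting of genes only.

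**Figure D1:**
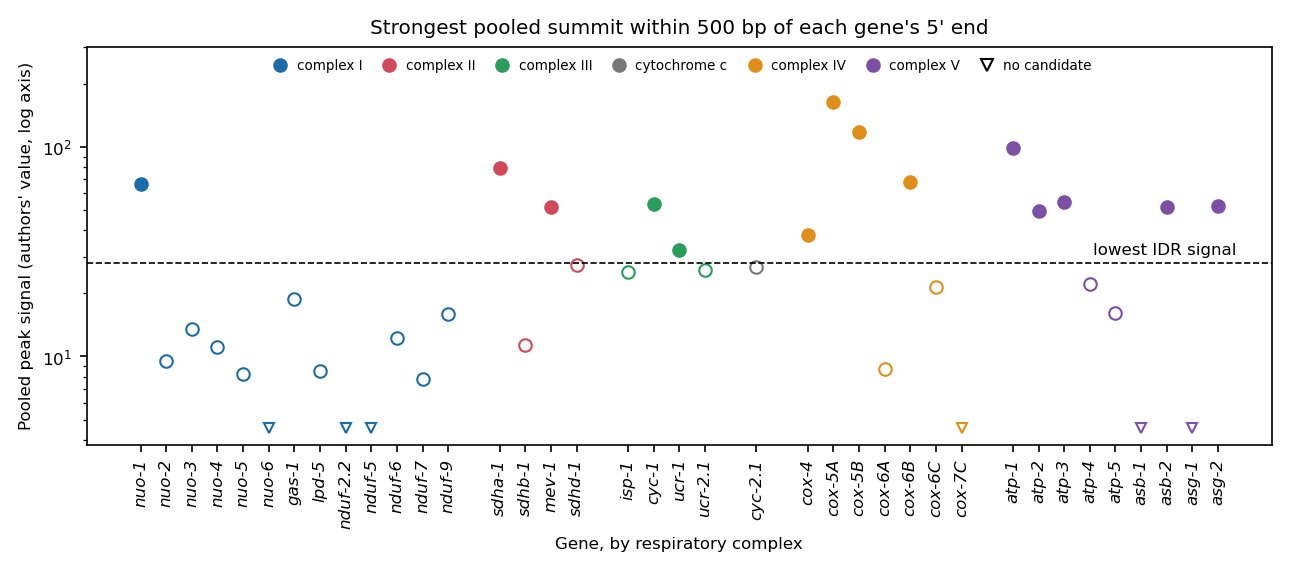
Strongest pooled peak signal (log axis) within 500 bp of the 5' end of each of the 38 genes, coloured by complex. Filled circles are the 14 bound genes, open circles are genes with a pooled candidate only, triangles mark genes with no pooled candidate, and the dashed line is the lowest IDR signal, 28.0. In complex I only *nuo-1* lies above the line.

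Sequences around summits are shown so that the bound DNA can be read beside its values. Each is an IDR summit base with 50 bases on either side, read from the RefSeq WBcel235 genome and written 5' to 3' on the strand of the named gene. None overlaps an annotated untranslated region. The first 5 follow a set rule, namely the bound genes with a listed word and the 3 strongest of those without, among genes on chromosomes whose sequence is printed here. The last 3 were chosen after their values were seen, because each holds a 9-base word that recurred among the bound genes. Capitals mark the listed word AGACGCAG on either strand (CTGCGTCT) and the recurring words TTGCGAGAC (reverse GTCTCGCAA) and TGCTGGCGC (reverse GCGCCAGCA).
ucr-1, chrIII:5591928-5592028, plus strand: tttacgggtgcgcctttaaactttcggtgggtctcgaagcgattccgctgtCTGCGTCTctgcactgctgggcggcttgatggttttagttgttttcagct
asb-2, chrX:4469434-4469534, plus strand: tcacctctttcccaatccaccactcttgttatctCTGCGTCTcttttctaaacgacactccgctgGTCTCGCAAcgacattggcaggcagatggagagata
cox-5A, chrIII:12905150-12905250, plus strand: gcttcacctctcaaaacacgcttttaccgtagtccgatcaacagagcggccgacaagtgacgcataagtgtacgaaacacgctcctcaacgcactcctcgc
sdha-1, chrX:8546175-8546275, minus strand: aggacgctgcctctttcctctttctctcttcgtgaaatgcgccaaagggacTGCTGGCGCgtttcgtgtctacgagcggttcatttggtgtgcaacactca
cox-6B, chrIII:2785988-2786088, plus strand: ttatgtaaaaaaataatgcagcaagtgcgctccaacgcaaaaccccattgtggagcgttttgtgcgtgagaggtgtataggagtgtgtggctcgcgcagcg
nuo-1, chrII:11097493-11097593, plus strand: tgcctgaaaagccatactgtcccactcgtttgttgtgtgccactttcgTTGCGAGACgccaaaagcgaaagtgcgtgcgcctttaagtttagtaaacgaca
atp-2, chrIII:5228118-5228218, plus strand: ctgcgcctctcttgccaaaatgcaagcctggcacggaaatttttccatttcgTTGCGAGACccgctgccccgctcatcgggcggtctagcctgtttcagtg
mev-1, chrIII:10334068-10334168, plus strand: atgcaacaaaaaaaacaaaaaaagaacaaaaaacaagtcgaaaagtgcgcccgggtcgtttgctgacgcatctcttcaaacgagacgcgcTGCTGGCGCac

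These windows were rich in G and C. The GC content of the 14 member windows ran from 43.6% at *asg-2* to 57.4% at *cox-5B* and *atp-2*, with a median of 52.0%. The median was 48.5% in the windows of the 942 other IDR peaks at coding promoters. It was 32.7% at the 28136 nuclear candidates that did not pass IDR, and 33.7% in all coding windows from 250 to 150 bp upstream of the most upstream 5' end. At the pooled candidates of the 18 members that were not bound but had one, the median was 41.1%, ranging from 19.8% to 61.4%.

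The words AGACGCAG, CGGAACCC and GCCGACAC were searched on both strands because earlier results of these data named them. AGACGCAG lay in 2 of 14 member windows (14.3%), at *ucr-1* and *asb-2*. It lay in 10.8% of the other promoter windows, 1.53% of candidates that did not pass IDR and 1.22% of all coding windows upstream of 5' ends. In the sequences above, its centre is 4.5 bp from the summit at *ucr-1* and 12.5 bp at *asb-2*. CGGAACCC and GCCGACAC lay in 0 of 14 member windows, against 2.12% and 1.49% of the other promoter windows. They lay in 0.558% and 0.881% of candidates that did not pass IDR, and in 0.110% and 0.20% of the coding windows.

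A listing of every 9-base word in the 14 windows gave 5 words present in 3 of them, of which 4 overlap in the same 3 genes. Of those 4, the word shown was picked because it lay in the fewest other promoter windows. This word, TTGCGAGAC, lay in *nuo-1*, *atp-2* and *asb-2*, with its centre 2, 6 and 19 bp from the summit. The word was read on the gene's strand at *nuo-1* and *atp-2* and on the other strand at *asb-2*. It occurred in 11 of 942 other promoter windows (1.17%), in 0.0889% of candidates that did not pass IDR and in 0.13% of the coding windows. The overlapping words not shown lay in 13 or 14 of the other promoter windows (1.38% to 1.49%). TGCTGGCGC lay at *sdha-1*, *mev-1* and *cyc-1*, and in 4.67% of the other promoter windows, 0.0889% of candidates that did not pass IDR and 0.205% of the coding windows. Its centre was 5 bp from the summit at *sdha-1*, 44 bp at *mev-1*, near the window edge, and 11 and 19 bp at *cyc-1*. Neither word lay at any of the 18 candidate summits of members that were not bound. With each word in only 0.0889% of candidates that did not pass IDR, this absence does not set these members apart. Both words were picked because they recurred in these windows, and base composition was not accounted for, so their counts are descriptions.

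Complex I takes electrons from NADH. Its bound member was *nuo-1*, which encodes the NADH-binding flavoprotein subunit, with an IDR signal of 66.4 (rank 436). The overlapping peak had a signal of 13.3 (rank 674) in replicate 1 and 54.5 (rank 401) in replicate 2. Of the other 12 genes, 9 had a weaker pooled candidate. The highest were *gas-1*, which encodes a core subunit near the quinone site, at 18.7 (rank 3203), and *nduf-9* at 16 (rank 4008). Signals were 13.5 at *nuo-3*, 12.3 at *nduf-6*, 11.1 at *nuo-4* and 9.50 at *nuo-2*. They were 8.56 at *lpd-5*, 8.21 at *nuo-5* and 7.79 at *nduf-7*. All 9 thus lay below the IDR limit of 28.0.

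The remaining complex I genes, *nuo-6*, *nduf-2.2* and *nduf-5*, had no pooled candidate. *nduf-5* had none in any list. *nduf-2.2*, a homologue of *gas-1*, had weak candidates of 2.18 in replicate 1 (rank 19129) and 4.81 in replicate 2 (rank 26872). *nuo-6* had 2.22 (rank 18756) in replicate 1 and none in replicate 2.

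Complex II oxidises succinate. *sdha-1*, the gene of its flavoprotein subunit, had an IDR signal of 79.7 (rank 317), with 20.1 (rank 297) in replicate 1 and 57.4 (rank 358) in replicate 2. *mev-1*, which encodes a membrane anchor subunit, had 51.8 (rank 682), with 14 (rank 601) and 35.7 (rank 874) in replicates 1 and 2. The other anchor gene, *sdhd-1*, lay just under the IDR limit with a pooled signal of 27.4 (rank 1933), and was weak in replicate 1 at 2.71 (rank 13599). *sdhb-1*, the iron-sulfur subunit gene, had a pooled candidate of 11.3 (rank 7461) and none in replicate 1.

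Complex III passes electrons from ubiquinol to cytochrome c. *cyc-1*, the cytochrome c1 gene, had an IDR signal of 53.2 (rank 642), with 10.6 (rank 978) and 43.4 (rank 605) in replicates 1 and 2. *ucr-1*, a core protein gene, had the lowest signal of the 14, 32.2 (rank 1547). It had no overlapping peak in replicate 1 and 29.4 (rank 1219) in replicate 2. *isp-1*, the Rieske iron-sulfur protein gene, had a pooled signal of 25.3 (rank 2144), and *ucr-2.1*, another core protein gene, 25.7 (rank 2106). *isp-1* ranked 1292 in replicate 1 and 3990 in replicate 2, so the replicates placed it on opposite sides of the 1864 strongest peaks. The cytochrome c gene *cyc-2.1* had a pooled signal of 26.7 (rank 1998). Together with *sdhd-1*, *isp-1* and *ucr-2.1* it made 4 members with pooled ranks from 1933 to 2144, just past the limit, while *ucr-1* was the bound member nearest the limit.

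Complex IV, cytochrome c oxidase, held the strongest peaks of the 38 genes. *cox-5A* had an IDR signal of 164 (rank 138), with 42.1 (rank 108) in replicate 1 and 122 (rank 141) in replicate 2. *cox-5B* had 118 (rank 184), with 30.8 (rank 149) and 85.5 (rank 199). Their ranks were thus alike in both replicates. *cox-4* was weaker, at 38.0 (rank 1203), with 7.52 (rank 1766) and 31.7 (rank 1067) in replicates 1 and 2.

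*cox-6B* had an IDR signal of 68.1 (rank 413) and 62.3 (rank 319) in replicate 2, but no overlapping peak in replicate 1. The replicate 1 list held near it only a candidate 470 bp upstream, of signal 3.02 (rank 11219). This binding thus rests on replicate 2. Annotated 5' ends of *cox-6B* lie 86539 bp apart, and the peak was at the downstream end, in an intron of the longer transcript. The complex IV genes that were not bound were *cox-6C* with a pooled signal of 21.5 (rank 2654), *cox-6A* with 8.75 (rank 12827) and *cox-7C* with no pooled candidate. *cox-7C* had a replicate 2 candidate of 10.7 (rank 6072), 500 bp upstream, and none in replicate 1.

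Complex V is the ATP synthase. Its catalytic head genes were both bound, *atp-1* (alpha subunit) with an IDR signal of 98.8 (rank 218) and *atp-2* (beta subunit) with 49.7 (rank 741). *atp-1* had 24.8 (rank 212) and 73.6 (rank 242) in replicates 1 and 2, and *atp-2* had 11.2 (rank 888) and 40.5 (rank 703). *atp-3*, which encodes the stalk protein OSCP, had 54.7 (rank 614), with 10.3 (rank 1030) and 45.1 (rank 550). *atp-4* (coupling factor 6) had a pooled candidate of 22.2 (rank 2546) and *atp-5* (subunit d) one of 16.1 (rank 3981), and neither was bound.

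Subunits b and g are each encoded by 2 of the listed genes, and in both pairs 1 gene was bound and the other had no pooled candidate. *asb-2* had an IDR signal of 51.7 (rank 686), with 6.32 (rank 2379) in replicate 1 and 46.1 (rank 524) in replicate 2. *asb-1*, the paralogue known for germline expression, had only a replicate 1 candidate of 3.46 (rank 8562). *asg-2* had an IDR signal of 52.0 (rank 674), with 8.67 (rank 1399) and 43.5 (rank 601), while *asg-1* had no candidate in any list. How the authors treated reads that match both paralogues was not given in the sources used here.

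Signals of the bound genes sat above the middle of the promoter peaks. The 14 member peaks had a median IDR signal of 53.9 and a median rank of 628, against 44.3 and 909.5 for the 942 other IDR peaks at coding promoters. The 932 strongest IDR peaks included 12 of the 14 member peaks (85.7%) and 51.8% of the other promoter peaks. The exceptions were *cox-4* and *ucr-1*. No test of this difference was made.

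In the wider lists, a pooled candidate lay at 32 of the 38 genes, against 37.8% of other coding genes. A replicate 1 candidate lay at 26, against 30.3%, and a replicate 2 candidate at 32, against 38.2%. The median pooled signal of the 32 genes with a candidate was 26.2, against 10.2 for the other coding genes with one. For those not bound, the median was 14.8 for 18 members and 9.04 for other coding genes. Within the 18, the 9 complex I genes had a median of 11.1 and the 9 others 22.2.

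All 14 member peaks were matched by a peak in replicate 2, and 12 were matched in replicate 1 (85.7%, against 94.6% of the other promoter peaks). The exceptions in replicate 1 were *ucr-1* and *cox-6B*. When each replicate list was cut to its 1864 strongest peaks, 12 members were bound in replicate 1 and 14 in replicate 2, with 11 bound in both. Of the other coding genes 3.94% were bound in both. The 14 of replicate 2 were the same genes as in the IDR list. Each bound member held the same rank in the IDR and pooled lists, and the pooled list was made with replicate 2. This match is therefore not an independent check. In replicate 1 *asb-2*, *cox-6B* and *ucr-1* dropped out and *isp-1* came in.

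**Figure D2:**
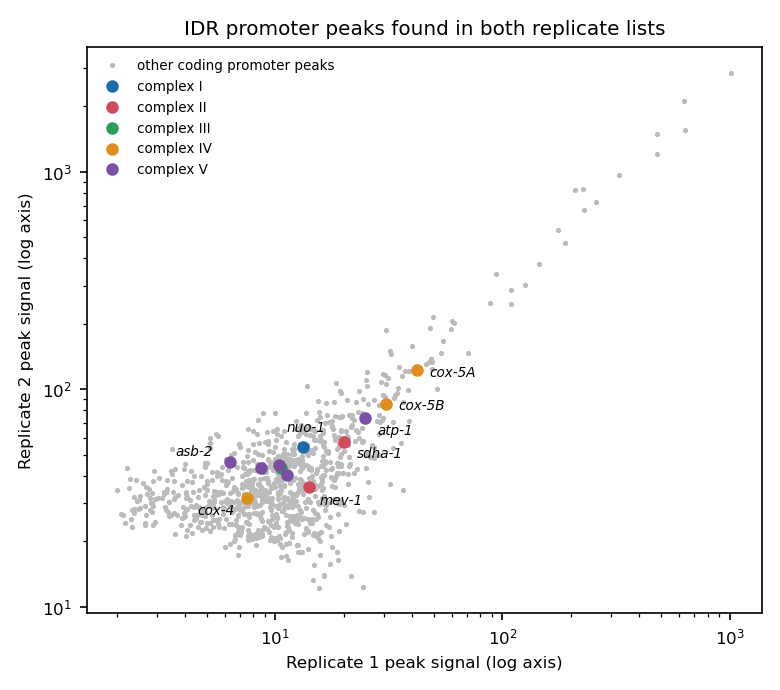
Peak signal in replicate 1 (x, log axis) and replicate 2 (y, log axis) for IDR peaks at coding promoters that overlapped a peak in both lists. Coloured points are the 12 such member peaks by complex, grey points the 887 other promoter peaks. *cox-5A*, at 42.1 and 122, is the highest member, and *asb-2*, at 6.32 and 46.1, has the lowest replicate 1 signal of the 12.

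Summits lay upstream of the 5' end at all 14 bound genes, with a median of 195.5 bp. Of the other bound coding genes 93.0% had the summit upstream, and their median position was -178 bp on a scale where upstream is negative. The distance was between 150 and 300 bp at 10 members. The share of other bound coding genes in this band was not computed, and their median lies inside it. Distances ranged from 439 bp at *cox-4* to 157 bp at *ucr-1* for 11 members, while *atp-1*, *atp-3* and *cox-5B* had summits 22, 13 and 9 bp upstream. *atp-3* has 4 annotated 5' ends over 285 bp and *cox-5B* has 2 over 284 bp. Both were measured from the most upstream end, and from their other ends the same summits lay further upstream. *mev-1* and *ucr-1* were also measured from the most upstream of several ends. The 2 replicates placed the summit of a member peak 14 to 92 bp apart, with a median of 21.5 bp over the 12 peaks found in both, against 21 bp for other promoter peaks. The largest gap was at *nuo-1*, at -361 bp in replicate 1 and -269 bp in replicate 2. At *atp-1* the replicate 1 summit lay 30 bp downstream and at *cox-5B* 9 bp downstream, so for these genes the side of the 5' end was within the replicate spread.

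**Figure D3:**
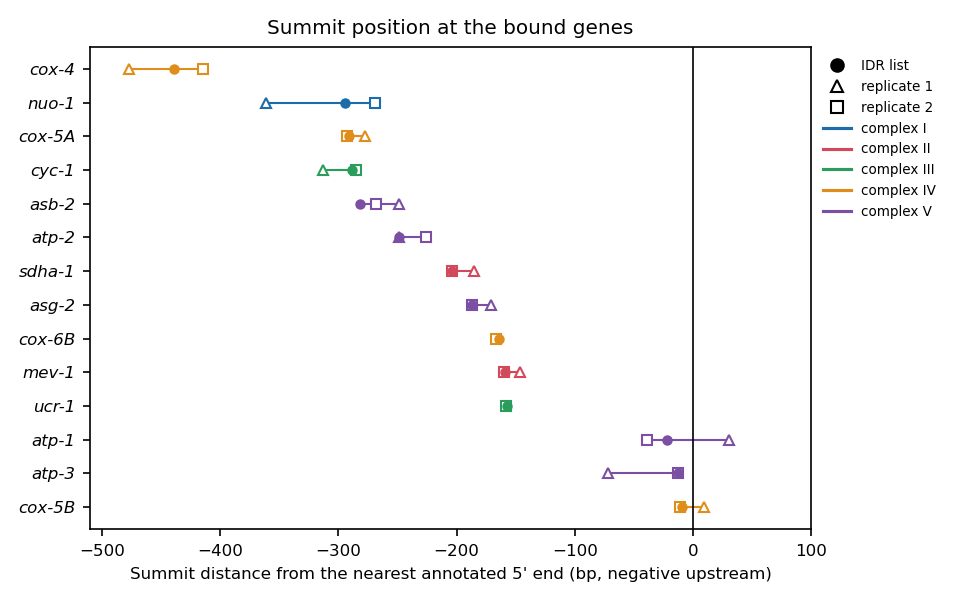
Distance in bp from the nearest annotated 5' end of the named gene (negative upstream) of the summit in the IDR list (filled circle), replicate 1 (triangle) and replicate 2 (square) at the 14 bound genes, coloured by complex. Most summits lie between 150 and 300 bp upstream, and *atp-1*, *atp-3* and *cox-5B* lie close to 0. At *atp-3* and *cox-5B* the distance is from the most upstream of several annotated 5' ends.

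At 8 of the 14 member peaks the 500 bp around the summit also held the 5' end of another coding gene (57.1%), against 30.3% of the other promoter peaks. At 12 of the 14 the coding 5' end nearest the IDR summit was that of the member itself. The same held for 944 of the 1241 other bound coding genes. The member exceptions were *mev-1*, 159 bp from the summit where *jmjd-4* was 100 bp away, and *cox-6B*, 164 bp away where *Y71H2AM.20* was 90 bp away. The *nuo-1* peak also lay 339 bp from the 5' end of the ribosomal protein gene *rpl-36.A*, against 294 bp from that of *nuo-1*. These 5' ends face away from each other across 633 bp. The replicate 1 summit, at -361 bp from *nuo-1*, was therefore nearer to *rpl-36.A*. The replicate 2 summit, at -269 bp, was nearer to *nuo-1*. The replicates thus differed on the nearest gene, and the count of 12 uses the IDR summit only. No assignment of a shared peak to either gene was tested. Summits lay between coding genes at 13 of the 14 peaks (92.9%) and at 82.3% of the others, with *cox-6B* the exception.

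Noncoding RNA genes other than piRNA genes lay within 250 bp of 3 of the 14 summits (21.4%), against 15.5% of the other promoter peaks. At *sdha-1* the snoRNA gene *D2021.6* (X, 8546076 to 8546204, same strand) lay 21 bp from the summit, which was 204 bp from the *sdha-1* 5' end. The unclassified noncoding RNA gene *D2021.5* spanned that summit on the other strand. SNPC-4 signal at the snoRNA gene and at *sdha-1* thus cannot be told apart by position. This was the only member peak with a gene of an snRNA, snoRNA, tRNA, miRNA or rRNA class so near (7.14%, against 5.10% of the other promoter peaks).

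At *nuo-1* the unclassified gene *C09H10.13* spanned the summit and *C09H10.11* lay 5 bp away. At *atp-3*, *F27C1.17* and *F27C1.16* lay 11 and 15 bp away. The other 11 summits, *cox-5A* and *cox-5B* among them, had no such RNA gene within 250 bp. A piRNA gene, *21ur-12279*, lay 130 bp from the *atp-1* summit and was the only one near a member, while 0.849% of the other promoter peaks had one.

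Promoter layout was read from the annotation. A gene was divergent when the nearest upstream neighbour was a coding 5' end on the other strand within 1000 bp, and close behind a same-strand gene when that gene ended within 500 bp. Divergent genes made up 21 of the 38 members (55.3%) and 17.4% of other coding genes. Of these, 8 members (38.1%) and 18% of the others were bound. One of the 8, *cox-6B*, was bound at its downstream 5' end and not at the upstream end that faces the divergent neighbour. Among genes with neither neighbour, 4 of 9 members and 3.75% of others were bound, and among genes close behind a same-strand gene 2 of 8 and 3.74%. The 4 bound members with neither neighbour were *cox-4*, *cox-5A*, *cox-5B* and *asb-2*. In complex I, 1 of 6 divergent genes was bound, 0 of 3 close behind a same-strand gene and 0 of 4 with neither neighbour.

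Worm genes that follow each other closely on a strand can be transcribed together as an operon from the promoter of the first. *cyc-2.1* lay 111 bp behind *rpl-20*, which had an IDR signal of 265. That summit lay at -293 bp from the *rpl-20* 5' end and nearer the 5' end of *Y17G9B.5*. *nuo-4* lay in a run that began with *syf-2*, which had an IDR signal of 79.2 within 500 bp of its 5' end. When the first gene of such a run was read as well, 16 members and 8.89% of other coding genes were bound. No operon annotation was used.

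By chromosome, 5 of 13 members on I were bound, 1 of 3 on II, 5 of 10 on III, 0 of 4 on IV, 0 of 3 on V and 3 of 5 on X. The share of other coding genes bound on each chromosome was not computed, so no difference between chromosomes can be read from these few genes. The members bound on I were *cyc-1*, *cox-4*, *cox-5B*, *atp-1* and *atp-3*. On III they were *mev-1*, *ucr-1*, *cox-5A*, *cox-6B* and *atp-2*, and on X *sdha-1*, *asb-2* and *asg-2*.

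Other genes of the pathway were read from lists set with earlier results known. TCA cycle genes, which feed the respiratory chain, were bound at 7 of 16 (43.8%, exact 95% interval 19.8 to 70.1). The strongest were *dld-1* with an IDR signal of 160 (rank 139), *sucl-1* with 64.3 and *aco-2* with 61.5, and the *aco-2* summit lay nearer the 5' end of *eef-1B.1*. Among 11 other respiratory chain genes 2 were bound, *ucr-2.2* with 89.0 (rank 259) and the complex I gene *nduf-11* with 59.5 (rank 532). *ucr-2.2* is a paralogue of *ucr-2.1*, which lay under the limit, and *sdha-2*, *cyc-2.2* and *ucr-2.3* had no pooled candidate.

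Assembly factor genes were bound at 3 of the 19 found in the annotation, namely *sco-1* (85.5), *cox-10* (57.4) and *cox-14* (47.0, with the 5' end of *rde-4* nearer the summit). Ubiquinone synthesis genes were bound at 0 of 8 (exact 95% interval 0 to 36.9, for the counting of genes only). Glycolysis genes were bound at 2 of 18, *hxk-2* (41.4, with the 5' end of *cdk-9* nearer the summit) and *hxk-3* (32.5). Genes of the mitochondrial ribosome were bound at 12 of 70 (17.1%), led by *mrps-7* (81.4), *mrpl-49* (79.9) and *mrpl-55* (76.3). These 12 genes shared 11 peaks, 7 of the 12 had a summit nearest their own 5' end, and the *mrpl-49* peak was also counted for *rpl-28*. Cytosolic ribosomal protein genes were bound at 58 of 78 (74.4%), on 55 peaks, and for 34 of the 58 the nearest coding 5' end was their own. The same background of 6.23% applies to each list, and no list was tested against another.

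**Figure D4:**
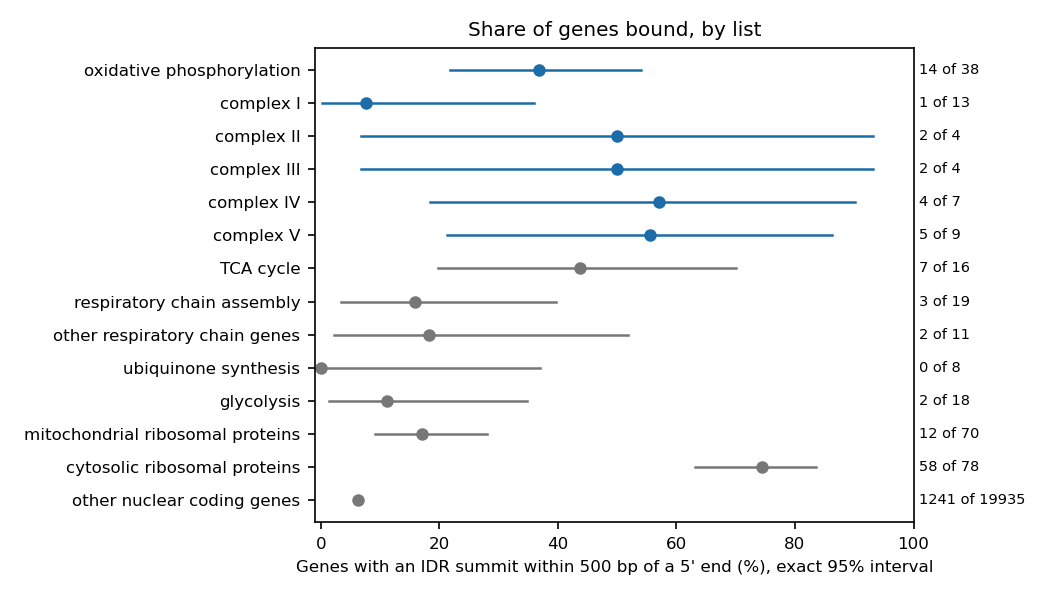
Share of genes (%) with an IDR summit within 500 bp of a 5' end, for the 38 genes and their complexes (blue) and for related lists and all other nuclear coding genes (grey). Lines are exact 95% intervals that cover the counting of genes only, and the counts stand at the right. Complex I, at 1 of 13, lies near the 6.23% of other coding genes, and complexes II to V each hold between 2 of 4 and 4 of 7 bound genes. The bound complex I gene *nduf-11* is counted under other respiratory chain genes.

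The mitochondrial genome encodes 12 further protein subunits of complexes I, III, IV and V. An IDR summit lay inside 11 of these 12 genes, with highest signals per gene from 35.3 to 1515. In replicate 2 a summit lay inside all 12, while replicate 1 listed 0 peaks on the mitochondrial genome. These signals therefore rest on 1 library. Mitochondrial DNA is present in many copies per cell, and its part in these signals was not tested.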

How the data were processed

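SNPC-4 ChIP-seq peak lists from 2 biological replicates were used, on ce11. The deposited signal value and −log10 q value of each peak are the authors' peak-caller output, in narrowPeak layout. Per the deposited description files, each list came from the replicate or pooled alignments and a control alignment and was input for IDR. Caller, aligner and their versions are not given in the sources used here. Each q value was not used for results. No read count was given, so sequencing depth is unknown, and intervals cover counting only.

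The ce10 lists were not used. Genes and 5' ends came from Ensembl release 115 (WBcel235, the assembly of ce11), and sequences from RefSeq WBcel235. The strongest summit (peak start plus offset) within 500 bp of any transcript 5' end was taken per gene. Replicate peaks were matched by an overlap of at least 1 bp. Intervals are exact (Clopper-Pearson, 95%). No p-value was computed: there is 1 group, and no set test was made. The assignment was checked on planted summits. The members, lists and words were chosen with earlier results of these data known. By the naming rule all members may be named, other coding genes where nearer a member's summit, and the 3 strongest of a related list. The 9-base words, 3 of the printed sequences, the paralogues, *rpl-36.A* and the first genes of runs were chosen after their values were seen. So were *rpl-28* and the coding genes named as nearer the summits of related genes. Python 3.11.15, numpy 2.4.6, scipy 1.17.1 and matplotlib 3.10.9 were used. The 9 alternatives were other windows, the most upstream 5' end, stronger peaks, own nearest summits, no RNA gene nearby, each replicate alone and same-strand runs.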

Additional observations from a re-analysis of the deposited data

How the results depend on the processing

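The count of bound members was 14, and it lay between 11 and 16 in 8 of the 9 alternatives. The exception was a 250 bp window, with 9 members and 4.05% of other coding genes, where *asb-2*, *cox-4*, *cox-5A*, *cyc-1* and *nuo-1* fell outside and the median summit distance became 159 bp. The share of other coding genes moved from 6.23% to 8.15% at 1000 bp (16 members, with *cox-6A* and *nduf-2.2* gained), 3.31% with the 932 strongest peaks (12 members) and 4.74% with summits nearest the gene's own 5' end (12 members). It was 5.26% without summits near noncoding RNA genes (11 members), 8.89% with the first gene of a same-strand run (16 members), and 5.59% to 6.39% with a replicate left out (12 and 14 members). The IDR list draws on both replicates, so counts from a single replicate are not independent of the main count. With only the most upstream 5' end, 13 members and 5.89% remained. The share of members was above that of other coding genes in each alternative, and complex I had 0 to 2 bound genes of 13. The median log2 signal of bound members, 5.75, moved by less than the replicate SD of 0.32 wherever it was computed. Largely the same peak signals entered each of these settings, so this does not measure the effect of replicate noise. The median signal was not computed for single replicates, whose signals are on another scale, nor the distance for same-strand runs. No paired analysis was possible because there is 1 group. Depth is unknown, so a gene without a peak cannot be called unbound by SNPC-4.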
